A study of Mus musculus with 8 samples.

Results

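Interferon-inducible GTPases are proteins by which a single cell defends itself against microbes that have entered it. The genes described here were 10 members of this family: the guanylate-binding protein genes Gbp2, Gbp3, Gbp6, Gbp7 and Gbp9, and the immunity-related GTPase genes Igtp, Irgm1, Irgm2, Iigp1 and Tgtp1. They are 10 of the 37991 genes of the count table. The family was chosen by its measured values, because Gbp2 was lower in H2afy_KO pools while other interferon genes were higher. The difference between genotypes therefore stands below as a description for the members, with no test. Within-genotype variation, the order of levels between genes and the promoter sequences were not used in that choice.

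RNA was sequenced from B-cell-biased lymphoid progenitors, a bone marrow population already inclined towards the B lineage, in 2 groups: H2afy_KO (H2afy-/- mice, 4 pools) and H2afy_WT (H2afy+/+ mice, 4 pools). H2afy encodes the histone variant macroH2A1. All mice were 5 to 12 weeks old, all cells were sorted by flow cytometry after enrichment for Kit-positive marrow cells, and no interferon or infection is named in the labels for either group. Each pool held the RNA of 5000 to 15000 cells from 2 to 3 mice, and the series title places the comparison in the splicing of H2afy by mutant U2AF1. The labels do not give the deleted part of the allele, the mouse strain, or whether pools share mice, so the spread between pools may be partly technical.

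Guanylate-binding proteins are large GTPases that assemble on bacteria and on the membranes of vacuoles holding parasites, where they break the membrane and help start inflammatory cell death. Immunity-related GTPases act on the same vacuoles in mice. Their effectors carry a lysine in the first GTP-binding loop and load onto the vacuole, whereas the regulators Irgm1, Irgm2 and Igtp carry a methionine there and hold the effectors inactive on the cell's own membranes. Transcription of both classes is known to depend on interferon-gamma, through gamma-activated sites, and on interferon response factors at interferon-stimulated response elements. In blood-forming tissue, Irgm1 is known for keeping stem cells from exhaustion when interferon is present.

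Pools held 21330088 to 29029765 gene counts, and 13722 genes passed the filter on low counts, all 10 members among them. Levels are given as CPM, counts scaled to library sizes with TMM factors. Immunoglobulin transcripts took 0.402%, 10.00%, 39.0% and 33.4% of the counts in H2afy_KO pools 1 to 4, and 3.47%, 0.948%, 19.5% and 12.9% in H2afy_WT pools 1 to 4. H2afy itself had 1953, 1744, 1423 and 1517 CPM in H2afy_KO pools and 2455, 2567, 2063 and 1981 CPM in H2afy_WT pools; because the deleted part is not stated, these counts do not check the genotype labels. All 11 B progenitor markers reached 1 CPM. Their summed level was 6720 to 8215 CPM in H2afy_KO pools and 9075 to 11319 CPM in H2afy_WT pools. The largest part came from Dntt, with 3298 to 5067 CPM in H2afy_KO pools and 5010 to 6235 CPM in H2afy_WT pools, which overlapped. The gap between the sums thus rests largely on 1 gene. In bulk pools, fewer cells of a type and less RNA per cell cannot be told apart.

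The coding sequence of the first GTP-binding loop shows how the members divide, and it is printed here because it separates regulators from effectors. Each stretch below was read from the GENCODE M1 transcripts, 5′ to 3′ on the coding strand, and the capitals mark the codon before the closing serine, which encodes lysine in AAA or AAG and methionine in ATG.
Gbp2: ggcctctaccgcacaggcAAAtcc
Gbp3: ggtttatatcgtacagggAAGtcc
Gbp7: ggactataccgtacgggaAAAtcc
Gbp6: ggattgtaccgtacagggAAGtcc
Gbp9: ggattgtaccgtacagggAAGtcc
Irgm1: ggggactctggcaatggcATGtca
Irgm2: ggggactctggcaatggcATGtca
Igtp: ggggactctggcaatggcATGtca
Tgtp1: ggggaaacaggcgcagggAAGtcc
Irgm1, Irgm2 and Igtp carry the same 24 bases, and so do Gbp6 and Gbp9. Iigp1 has the lysine codon AAG. The 5 guanylate-binding members, Tgtp1 and Iigp1 thus share the lysine, and the 3 regulators share the methionine.

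Promoters are shown next, because these genes are known as interferon targets and because Gbp2 and Gbp3, of the same cluster on chromosome 3, differed in opposite directions between the genotypes. The 250 bases upstream of each RefSeq start site (build GRCm38.p6) were searched on both strands for GAAANNGAAA, the core of the interferon-stimulated response element, and for TTCNNNGAA, the gamma-activated site, which reads the same on both strands. RefSeq promoters were matched for 7 of the 10 members by symbol, and not for Gbp6, Gbp9 and Iigp1. In the runs below the capitals mark every match, and the last base lies directly before the start site.
Gbp2, chr3:142620413-142620662, plus strand: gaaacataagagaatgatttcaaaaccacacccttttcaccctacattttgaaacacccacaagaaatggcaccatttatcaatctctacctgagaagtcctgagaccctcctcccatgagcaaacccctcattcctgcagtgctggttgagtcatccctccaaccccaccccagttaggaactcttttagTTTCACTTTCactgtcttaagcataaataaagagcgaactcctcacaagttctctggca
Gbp3, first of 2 start sites, chr3:142559794-142560043, plus strand: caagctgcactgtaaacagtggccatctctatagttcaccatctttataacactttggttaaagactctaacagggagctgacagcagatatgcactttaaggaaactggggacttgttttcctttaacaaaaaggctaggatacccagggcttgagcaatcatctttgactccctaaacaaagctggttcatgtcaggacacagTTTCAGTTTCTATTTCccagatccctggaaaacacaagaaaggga
Irgm2, chr11:58214727-58214976, plus strand: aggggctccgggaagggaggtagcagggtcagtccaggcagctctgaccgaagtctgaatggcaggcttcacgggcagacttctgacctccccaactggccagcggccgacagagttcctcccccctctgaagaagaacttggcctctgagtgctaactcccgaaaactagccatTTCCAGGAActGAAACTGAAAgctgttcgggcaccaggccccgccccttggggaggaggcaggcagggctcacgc
In Gbp2 the response element core lay on the minus strand, with its first base 59 bases before the start. In Gbp3 there were 2 overlapping matches on the minus strand, 45 and 39 bases before the first start site, and none upstream of the second. Irgm2 carried a gamma-activated site 75 bases before its start and a response element core 64 bases before it, on the plus strand.

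All 7 matched members held the response element core within these 250 bases, against 978 of all 32851 RefSeq promoters (2.98%). Members were counted by gene, with a match at any start site, and the background by promoter. The members are related genes, so their matches are not independent. The gamma-activated site was found in 4 of the 7 (Gbp7, Igtp, Irgm2 and Tgtp1), against 7.02% of all promoters. Of 9 other family genes with a promoter, 5 held the core and 4 held neither motif. In Igtp, Irgm2 and Tgtp1 the site and the core stood 2 bases apart in the same order. That composite, TTCNNNGAANNGAAANNGAAA, was present in 5 promoters of the 32851 (0.0152%), and all 5 belong to this family on chromosome 11. They are printed below to show what they share, with the capitals marking the gamma-activated site and the response element core on either side of the 2 spacer bases.
Igtp, chr11:58199511-58199531, plus strand: TTCTAGGAActGAAACTGAAA
Irgm2, chr11:58214902-58214922, plus strand: TTCCAGGAActGAAACTGAAA
Tgtp1, chr11:48992314-48992334, minus strand: TTCCAGGAAtcGAAACTGAAA
Tgtp2, chr11:49064273-49064293, minus strand: TTCCAGGAAtcGAAACCGAAA
Gm12185, chr11:48927248-48927268, minus strand: TTCCAGGAAtaGAAAGTGAAA
These genes are related copies, so the composite is not 5 independent matches. A match describes letters in this window; binding was not measured in these samples.

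**Figure D1:**
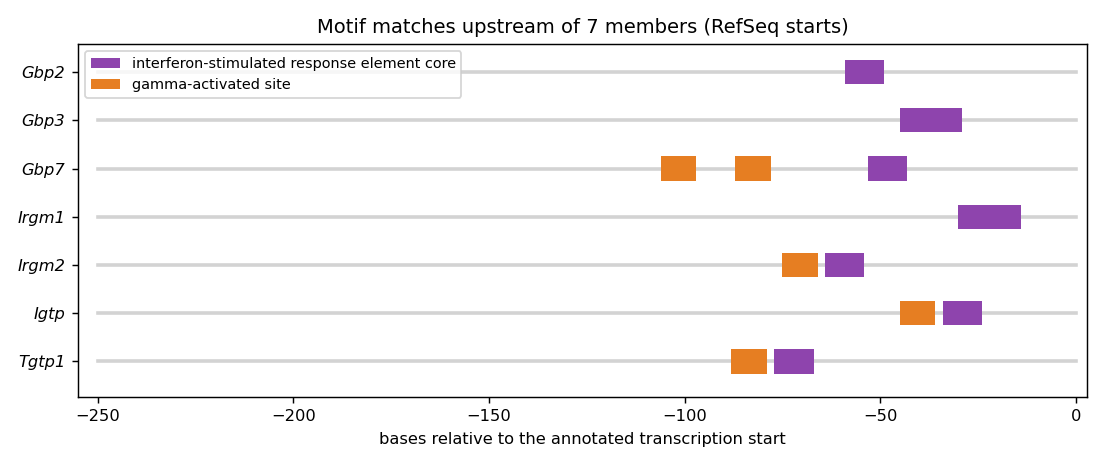
Position of each motif match (bases relative to the annotated RefSeq start, horizontal axis) upstream of the 7 members with a promoter (rows). Purple boxes are response element cores, drawn merged where they overlap in Gbp3 and Irgm1, and orange boxes are gamma-activated sites; every core lies within 77 bases of the start.

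Gbp2 had the largest difference of the 10 members. It lies at chr3:142283566-142300972 on the plus strand of NCBIM37 (ENSMUSG00000028270) and encodes a guanylate-binding protein that ruptures pathogen vacuoles. It had 18.1, 27.1, 11.5 and 18.1 CPM in H2afy_KO pools 1 to 4, and 36.5, 51.7, 23.9 and 31.2 CPM in H2afy_WT pools 1 to 4, from 190 to 622 and from 571 to 1369 counts. H2afy_KO pools 1, 3 and 4 lay below every H2afy_WT pool, while H2afy_KO 2 lay above H2afy_WT 3, so the groups overlapped. The mean was 18.7 ± 6.38 CPM over H2afy_KO pools, against 35.8 ± 11.8 CPM over H2afy_WT pools (SD, n = 4 each), a fitted ratio of 0.523 and a log2 fold change of -0.94 (SE 0.29). Each H2afy_KO pool was lower than the H2afy_WT pool of the same number, by log2 differences of -1.01, -0.93, -1.05 and -0.78.

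Gbp2 differed from Gbp3, a member of the same cluster, in the same pools. In NCBIM37, Gbp3 (ENSMUSG00000028268) lies at chr3:142223016-142236173 on the plus strand. Its level was 96.2, 95.8, 103.0 and 98.8 CPM in H2afy_KO pools and 91.1, 79.8, 79.3 and 83.0 CPM in H2afy_WT pools. Every H2afy_KO pool lay above every H2afy_WT pool, with means of 98.5 ± 3.33 and 83.3 ± 5.47 CPM (SD, n = 4 each), a log2 fold change of 0.24 (SE 0.10). It was the steadiest member, with a highest pool 1.30 times the lowest over all 8. The ratio of Gbp2 to Gbp3 CPM was 0.188, 0.282, 0.112 and 0.183 in H2afy_KO pools and 0.400, 0.648, 0.302 and 0.376 in H2afy_WT pools. These ratios did not overlap, and neither did those of Gbp2 to Irgm2 or to Iigp1, whereas its ratios to the other 6 members did. Gbp2 was picked as lower in H2afy_KO, and Gbp3, Irgm2 and Iigp1 had positive log2 fold changes. The gaps in these ratios are therefore a description and no separate evidence.

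**Figure D2:**
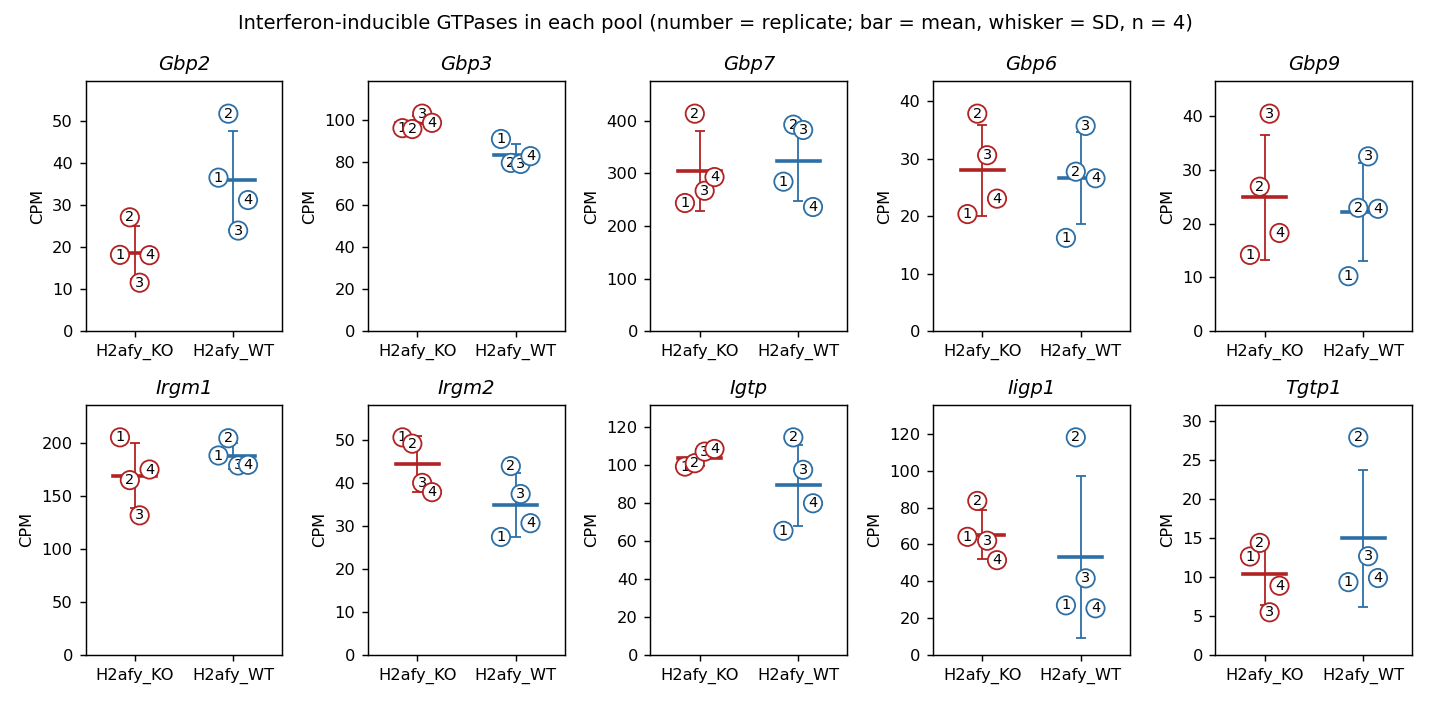
CPM of each member (vertical axis of each panel) in H2afy_KO pools (red, left) and H2afy_WT pools (blue, right); numbers are replicate numbers, bars the mean and whiskers the SD (n = 4). Gbp2 is at 11.5 to 27.1 CPM in H2afy_KO against 23.9 to 51.7 CPM in H2afy_WT, and Gbp3 is the panel in which the groups do not overlap.

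Gbp7, the third member of the chromosome 3 cluster (ENSMUSG00000040253, chr3:142193302-142213047, plus strand), was the most abundant member in CPM. It had 243, 413, 267 and 293 CPM in H2afy_KO pools and 284, 392, 382 and 236 CPM in H2afy_WT pools. The groups overlapped throughout, with a log2 fold change of -0.09 (SE 0.21), and the highest pool of both groups was number 2.

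Gbp6 and Gbp9 lie in the second guanylate-binding cluster, on the minus strand of chromosome 5 (ENSMUSG00000079362, chr5:105699723-105722718, and ENSMUSG00000029298, chr5:105507413-105539311). Gbp6 had 20.4, 37.8, 30.6 and 23.0 CPM in H2afy_KO pools and 16.2, 27.7, 35.7 and 26.6 CPM in H2afy_WT pools, a log2 fold change of 0.07 (SE 0.26). Gbp9 had 14.2, 26.9, 40.5 and 18.3 CPM in H2afy_KO pools and 10.2, 22.9, 32.5 and 22.8 CPM in H2afy_WT pools, a log2 fold change of 0.17 (SE 0.40). Both overlapped between the genotypes, and in both pool 1 was the lowest of each group. Gbp6 cannot be read apart from its copy Gbp10: 85.4% of the 50-base windows in its exons have an exact match elsewhere in NCBIM37, mostly in Gbp10. Summed, Gbp6 and Gbp10 averaged 30.6 ± 9.24 CPM over H2afy_KO pools, against 28.9 ± 9.21 CPM over H2afy_WT pools (SD, n = 4 each).

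The 3 regulators lie on chromosome 11. Irgm1 (ENSMUSG00000046879, chr11:48675470-48685185, minus strand) had 205, 165, 132 and 175 CPM in H2afy_KO pools and 188, 204, 179 and 179 CPM in H2afy_WT pools. Its H2afy_KO pools spanned a wider range than its H2afy_WT pools, 3 of them below every H2afy_WT pool and H2afy_KO 1 above them all, with a log2 fold change of -0.15 (SE 0.14). Irgm2 (ENSMUSG00000069874, chr11:58028530-58036282, plus strand) had 50.7, 49.2, 40.1 and 37.9 CPM in H2afy_KO pools and 27.5, 44.0, 37.5 and 30.7 CPM in H2afy_WT pools. It was higher in H2afy_KO in each of the 4 same-numbered pairs, though the groups overlapped through H2afy_WT 2 (log2 fold change 0.35, SE 0.18). Igtp, also called Irgm3 (ENSMUSG00000078853, chr11:58013058-58021093, plus strand), had 99.1, 100.9, 107.0 and 108.4 CPM in H2afy_KO pools and 65.3, 114.5, 97.4 and 79.8 CPM in H2afy_WT pools. Its H2afy_KO pools were tightly grouped, with a coefficient of variation of 4.37% against 23.9% in H2afy_WT, and lay inside the range of H2afy_WT (log2 fold change 0.22, SE 0.16).

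The effectors Iigp1 and Tgtp1 depended on a single pool. Iigp1 (ENSMUSG00000054072, chr18:60535683-60552281, plus strand), also called Irga6, the effector whose loading on Toxoplasma vacuoles is best described, had 64.1, 83.6, 62.0 and 51.4 CPM in H2afy_KO pools and 26.9, 118, 41.6 and 25.3 CPM in H2afy_WT pools. H2afy_WT 2 was above every other pool, and all H2afy_KO pools lay above the other 3 H2afy_WT pools. The log2 fold change was 0.30 (SE 0.52) over all pools and 1.06 without H2afy_WT 2. Tgtp1, also called Irgb6 (ENSMUSG00000078922, chr11:48798829-48807674, minus strand), had 12.6, 14.3, 5.46 and 8.86 CPM in H2afy_KO pools and 9.32, 27.9, 12.6 and 9.84 CPM in H2afy_WT pools. Its log2 fold change was -0.53 (SE 0.41), and -0.04 without H2afy_WT 2.

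Tgtp1 shares its sequence with Tgtp2, which lies in the same cluster. Exact matches elsewhere covered 83.2% of its exonic 50-base windows, and 223 of its exonic bases are also annotated to Gm12185 on the same strand. Summed, Tgtp1 and Tgtp2 had 87.4, 122.9, 44.3 and 56.4 CPM in H2afy_KO pools and 58.1, 146.6, 88.5 and 56.6 CPM in H2afy_WT pools, so the groups overlapped for the pair as well. The other members were more distinct: exact copies covered 1.34% of windows in Irgm1, 2.12% in Gbp2, 2.41% in Gbp7, 4.70% in Gbp3, 5.38% in Iigp1, 7.35% in Irgm2, 14.9% in Igtp and 19.6% in Gbp9.

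Of the 10 members, 6 had a log2 fold change above 0 and 4 below, with a median of 0.12, beside 6875 above and 6847 below and a median of 0.0007 over all 13722 genes. The edgeR fit called 0 members, and it called 0 of 13722 genes (0%) at an adjusted p of 0.05, with 1040 genes and 2 members under an unadjusted 0.05. DESeq2 called 126 of 14382 genes (0.876%) and 0 members. With the replicate number as a block, 15 of 13722 genes were called (0.109%), and Gbp2, the gene for which the family was picked, was 1 of them. Gbp3 alone had groups that did not overlap, against 299 of 13722 genes (2.18%) higher in H2afy_KO without overlap and 322 (2.35%) lower. The members were picked on this contrast, so nothing is read from these shares.

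**Figure D3:**
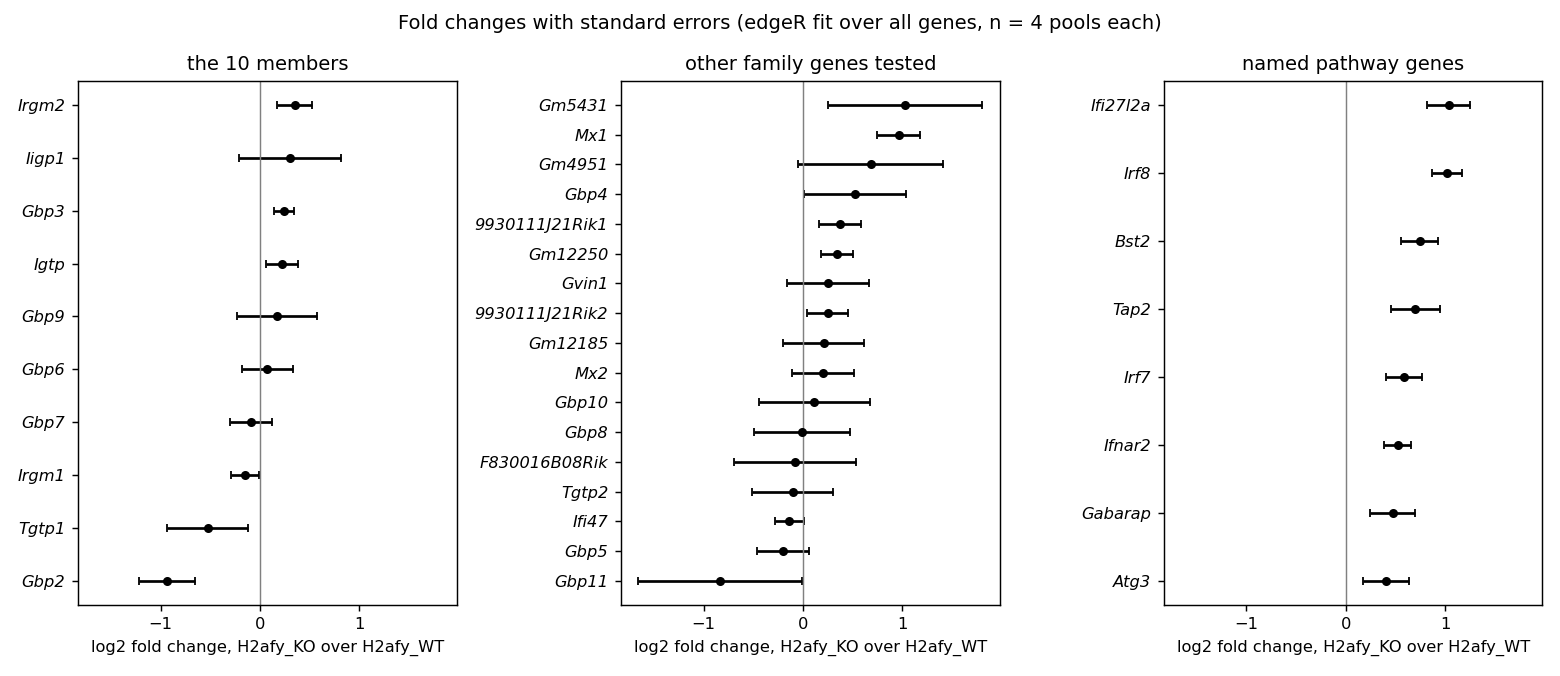
Log2 fold change of H2afy_KO over H2afy_WT (horizontal axis; points with 1 SE either side, edgeR fit over all genes, 4 pools each) for the members, the other family genes tested and the named pathway genes. Members run from Irgm2 at 0.35 to Gbp2 at -0.94, and the error bars of Gbp6, Gbp7, Gbp9 and Iigp1 cross 0.

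The rest of the family gave a wider view of the same clusters. Of 19 further family genes, 17 passed the filter, 11 with a log2 fold change above 0 and 6 below (median 0.21), and 0 were called by edgeR, with 1 under an unadjusted 0.05. Gbp1 and Irgc1 were at most 0.211 CPM in any pool. Among guanylate-binding genes, Gbp4 had 22.4, 51.6, 74.2 and 49.6 CPM in H2afy_KO pools and 12.1, 29.8, 59.8 and 35.5 CPM in H2afy_WT pools (log2 fold change 0.53, SE 0.51), higher in H2afy_KO in all 4 same-numbered pairs. The others had log2 fold changes of -0.01 (Gbp8), 0.12 (Gbp10), -0.20 (Gbp5) and -0.83 (Gbp11, SE 0.83, at most 4.65 CPM). Single pools carried these values: Gbp11 had -0.06 without H2afy_WT 3 and Gbp5 -0.01 without H2afy_WT 2, while Gbp8 ran from -0.34 to 0.45 and Gbp10 from -0.27 to 0.48 as single pools were left out. In Gbp4 and Gbp8, on chromosome 5 like Gbp6 and Gbp9, pool 1 was again the lowest of both groups.

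Among immunity-related GTPase genes outside the 10, the abundant effector Ifi47 (also called Irgd) had 169 to 268 CPM in H2afy_KO pools and 218 to 246 CPM in H2afy_WT pools (log2 fold change -0.14, SE 0.15). Log2 fold changes were -0.10 for Tgtp2 and 0.34 for Gm12250 (also called Irgb10). Gm4951, on chromosome 18 like Iigp1, was also highest in H2afy_WT 2: 17.1, 24.6, 15.4 and 10.97 CPM in H2afy_KO pools and 1.99, 26.2, 9.63 and 4.58 CPM in H2afy_WT pools, with a log2 fold change of 0.68, and 1.65 without H2afy_WT 2. F830016B08Rik, on the same chromosome, had -0.08, and 1.01 without H2afy_WT 2. Gm12185, 9930111J21Rik1, 9930111J21Rik2 and Gm5431 had 0.21, 0.37, 0.25 and 1.03; reads of the last 3 and of the giant GTPase gene Gvin1 (0.25) can be split among copies.

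The myxovirus resistance GTPases are dynamin-like proteins induced by type I interferon. Mx1 had 12.5, 16.2, 17.6 and 21.98 CPM in H2afy_KO pools and 6.85, 9.51, 8.20 and 10.3 CPM in H2afy_WT pools. It was the single gene of these 17 whose groups did not overlap, with a log2 fold change of 0.97 (SE 0.22; edgeR, adjusted p = 0.365), and DESeq2 called it higher. Mx2 overlapped (log2 fold change 0.20, SE 0.31).

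Ligands, receptors and signalling of interferon, which is known to induce genes of this family, were read from lists chosen with earlier results known. Whether an interferon acted on these cells was not tested. Ifng, the ligand, had 0 counts in every H2afy_KO pool and at most 0.169 CPM in H2afy_WT pools, and Ifnb1 had 0 counts in all 8 pools. Of 12 tested genes for the interferon-gamma receptor and its signalling, 0 were called by edgeR; 7 had a log2 fold change above 0 and 5 below (median 0.04). Irf8, a transcription factor of myeloid, dendritic and B cells that binds interferon response elements with partners, had 318, 272, 355 and 353 CPM in H2afy_KO pools and 122, 164, 180 and 174 CPM in H2afy_WT pools. The groups were far apart, with a log2 fold change of 1.02 (SE 0.15; edgeR, adjusted p = 0.0722). Irf8 was called by DESeq2, with no filter and with the replicate block. Irf1, the factor best known for inducing guanylate-binding genes, had overlapping groups (log2 fold change 0.01, SE 0.17), as did the receptor chain Ifngr1 (-0.01, SE 0.12).

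Of 8 tested genes for the type I interferon receptor and its signalling, 0 were called and all 8 had a log2 fold change above 0 (median 0.31), led by the receptor chain Ifnar2 (0.52, SE 0.14) and the interferon response factor Irf7 (0.59, SE 0.18). Of 35 type I response genes, 0 were called, 27 were above 0 and 8 below (median 0.16); the smallest p belonged to Ifi27l2a (1.04, SE 0.22) and Bst2 (0.74, SE 0.19), which tethers virus particles and is also a marker of plasmacytoid dendritic cells. Of 18 interferon-gamma targets that are not GTPases, 0 were called, with 16 above 0 and 2 below (median 0.26). They include Tap2, a peptide transporter for class I antigen presentation (0.70, SE 0.24). Of 18 genes that load these GTPases onto vacuoles or carry out the cell death they start, 0 were called. Among them, 9 were above 0 and 9 below (median -0.01). Gabarap (0.47, SE 0.22) and Atg3 (0.40, SE 0.23), both of the autophagy conjugation system, had the smallest p. Without H2afy_KO 3 and 4, the log2 fold change was 0.02 for Gabarap and 0.21 for Atg3. In edgeR, 2 interferon-gamma signalling, 3 type I signalling, 11 type I response, 4 interferon-gamma target and 0 loading genes were under an unadjusted 0.05, and DESeq2 called 6 pathway genes higher. Interferon genes below 0 included Samd9l (-0.66, SE 0.23), whose H2afy_KO pools (18.4 to 40.01 CPM) lay below all H2afy_WT pools (40.4 to 42.5 CPM), and the receptor chain Ifngr2 (-0.60, SE 0.27), both named after their values were seen.

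Markers of other cell types were read beside these lists. The 9 plasmacytoid dendritic cell markers, which include Irf8 and Bst2, all had log2 fold changes above 0 (median 0.74). Their summed level was 1092 to 2443 CPM in H2afy_KO pools and 838 to 1439 CPM in H2afy_WT pools. Within it, Ly6c2 had 14.1 to 983 CPM in H2afy_KO pools and 16.4 to 267 CPM in H2afy_WT pools. Of the 9 monocyte and macrophage markers, 8 had log2 fold changes above 0 (median 0.57). Cd68, a lysosomal membrane protein of macrophages, had 69.1 to 98.9 CPM in H2afy_KO pools and 22.4 to 39.2 CPM in H2afy_WT pools, without overlap (log2 fold change 1.45; edgeR, adjusted p = 0.0579). The sum of the 9, 249 to 340 CPM in H2afy_KO pools and 149 to 603 CPM in H2afy_WT pools, was carried by Lyz2, the marker below 0. Neutrophil markers summed to 700 to 2613 CPM in H2afy_KO pools and 1075 to 5136 CPM in H2afy_WT pools. All 7 had log2 fold changes below 0 (median -0.74). Erythroid and megakaryocyte markers summed to 3.27 to 18.4 CPM in H2afy_KO pools and 3.40 to 70.9 CPM in H2afy_WT pools. Of these, 6 had log2 fold changes below 0 and 1 above (median -1.27). T and natural killer markers had 220 to 439 CPM in H2afy_KO pools and 340 to 422 CPM in H2afy_WT pools. Most of this came from Nkg7, with 179 to 371 CPM in H2afy_KO pools and 277 to 344 CPM in H2afy_WT pools. Of the 7 tested, 3 had log2 fold changes above 0 and 4 below. The defining marker Cd3e was at 0 in 2 H2afy_KO pools and 1 H2afy_WT pool, and at most 0.377 CPM in any pool. Summed plasma cell markers ran from 113 to 19905 CPM in H2afy_KO pools and from 398 to 8871 CPM in H2afy_WT pools. All 6 had log2 fold changes above 0 (median 1.34), each with overlapping groups. Igj alone ran from 32.45 to 18967 CPM in H2afy_KO pools and from 282 to 8638 CPM in H2afy_WT pools. The part of these cells in the levels of the GTPases was not tested. Without H2afy_KO 3 and 4, the pools richest in immunoglobulin, the log2 fold change of Gbp2 was -0.66, and with immunoglobulin genes left out of the library sizes it was -0.92.

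Levels were compared between members per kilobase of annotated exon (CPM per kb), over all 8 pools. The order from the highest was Gbp7 (56.5 ± 12.8), Igtp (47.8 ± 8.05), Irgm1 (30.7 ± 4.04), Gbp3 (28.1 ± 2.82), Iigp1 (18.9 ± 9.88), Irgm2 (11.4 ± 2.36), Gbp2 (10.8 ± 5.03), Gbp6 (6.31 ± 1.71), Gbp9 (6.48 ± 2.70) and Tgtp1 (3.94 ± 2.11 CPM per kb; SD, n = 8), ranked by mean log2 level. None of the 9 neighbouring pairs differed after Benjamini-Hochberg adjustment in a 2-sided exact sign-flip permutation test over the pools, whose smallest possible p is 0.00781. The smallest adjusted p was 0.0938, for Igtp over Irgm1 (higher in 7 of 8 pools), Gbp3 over Iigp1 (7 of 8) and Iigp1 over Irgm2 (7 of 8). Over longer steps the levels parted: the 4 highest genes had 22.6 to 74.4 CPM per kb in every pool, and Gbp6, Gbp9 and Tgtp1 at most 11.1. The places of Gbp6 and Tgtp1 depend on how reads were split between copies, since Tgtp1 and Tgtp2 summed to 44.3 to 146.6 CPM. The step from Igtp to Irgm1 depends on the length used: 0.63 on the log2 scale with all annotated exons and 0.03 with the longest transcript. Counts were assigned to all 10 members in every pool, with Gbp7, Igtp, Irgm1 and Gbp3 at the top.

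**Figure D4:**
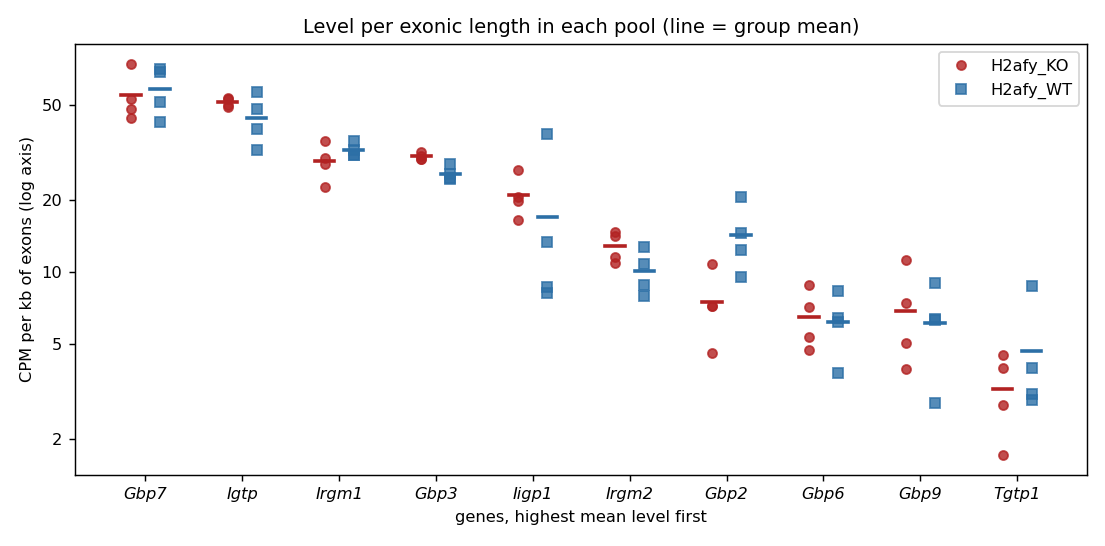
CPM per kb of exon (vertical log axis) of each member in H2afy_KO pools (red circles) and H2afy_WT pools (blue squares), ordered by mean level; lines are group means. Gbp7, Igtp, Irgm1 and Gbp3 lie above 22 CPM per kb in all 8 pools, and Gbp2 is the gene whose H2afy_KO mean, 7.43, lies furthest below its H2afy_WT mean, 14.2 CPM per kb.

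How the members varied together was read within genotypes, from deviations of log2 CPM from each genotype's mean over the 8 pools. The 45 pairs had a median Pearson r of 0.40, from -0.82 to 0.90, and 31 were positive. No pair passed after Benjamini-Hochberg adjustment over the 45, in a 2-sided exact permutation of the pools within genotype, and 5 had an unadjusted p under 0.05. Each genotype was permuted separately, though same-numbered pools deviated together, so the p-values of these pairs may be too small. The numbers were not permuted together here, where 24 arrangements could give no p below 0.0417. The closest pair was Gbp6 and Gbp9 (r = 0.90, rho = 0.93, exact permutation p = 0.0122 and 0.0174, adjusted 0.195 and 0.260), with r = 0.92 when the 2 pools farthest from the median of Gbp6 were left out. The 6 pairs on chromosome 11 were all positive, with a median r of 0.62. Without H2afy_WT 2, 5 of them were positive and the median was 0.38, with Igtp and Irgm1 at -0.26.

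Tgtp1, Irgm2 and Iigp1 formed the tightest trio. Irgm2 had r = 0.87 with Tgtp1 and r = 0.84 with Iigp1, and Iigp1 had r = 0.83 with Tgtp1 (adjusted p = 0.195 for each, exact permutation). H2afy_WT 2 was the highest H2afy_WT pool for all 5 immunity-related GTPase members, and without it these values were 0.75, 0.82 and 0.56. Gbp3 ran against the rest: its r was negative with each of the other 9 members, down to -0.82 with Irgm2. Its r with Gbp2 was -0.25, and 0.02 without H2afy_KO 3; its r with Gbp9 was -0.40, and 0.45 without H2afy_WT 1. All of these values share the same 8 pools and their cell makeup.

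**Figure D5:**
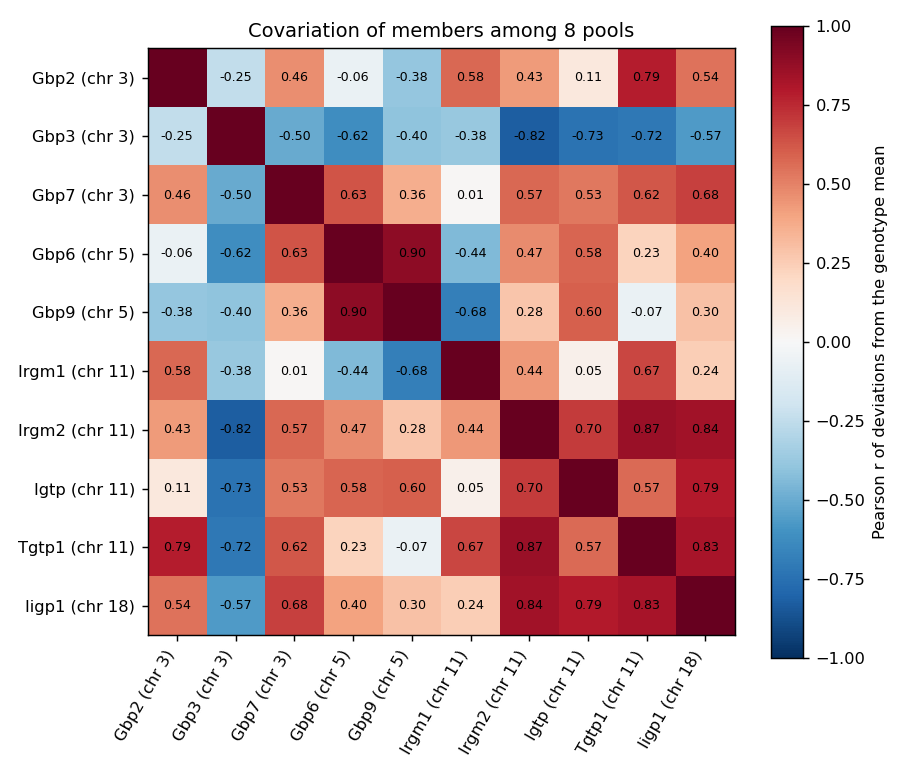
Pearson r of within-genotype deviations of log2 CPM over 8 pools for each pair of members (rows and columns ordered by chromosome; red positive, blue negative). The row of Gbp3 is blue throughout, and Gbp6 with Gbp9 is the darkest red cell off the diagonal at 0.90.

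Over 9597 genes with a mean of at least 5 CPM, those whose within-genotype deviations were most like Gbp2 were Cdkn3 (r = 0.98), a phosphatase acting on cyclin-dependent kinases, Dlgap5 (0.98), a mitotic spindle protein, Skiv2l (0.98), an RNA helicase, Crtc3 (0.97) and Efhd2 (0.96). Those most like the mean of the 10 members were Atg2b (0.99), a lipid transfer protein of autophagy, Ptpra (0.99), Pank2 (0.99), Pip4k2a (0.98) and Gigyf1 (0.98). Each r is over the same 8 pools and is the highest of the 9597, so it is a description.

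Of the 11 B progenitor markers, 9 had log2 fold changes below 0 and 2 above, Ly6d at 0.36 and Flt3 at 0.06, and in 5 the H2afy_KO pools lay below all H2afy_WT pools. Gbp2 was set against each of the 11, a relation chosen after their values were seen. Rag1, a subunit of the recombinase of antigen receptor genes, had 63.8, 93.5, 24.1 and 71.3 CPM in H2afy_KO pools and 213, 320, 116 and 143 CPM in H2afy_WT pools. Pool 2 was the highest and pool 3 the lowest of each genotype for both Rag1 and Gbp2. Within genotypes, Gbp2 followed Rag1 with r = 0.96 (2-sided exact permutation p = 0.00347, adjusted over 11 relations 0.0382) and rho = 0.90 (p = 0.0104, adjusted 0.115). With the pool numbers permuted together in both genotypes, since same-numbered pools deviated together, the exact permutation p of r was 0.0417, the smallest that 24 arrangements can give, and 0.115 after adjustment, so the relation did not pass. When the 2 most distant pools on the Gbp2 axis were left out, r was 0.94. Ebf1, a B-lineage transcription factor, had r = 0.86, Igll1 and Vpreb1, the surrogate light chain genes, 0.80 and 0.77, and Il7r 0.75 (exact permutation within genotypes, adjusted p = 0.107 each), whereas Cd79a had 0.27 and Ly6d -0.55. Whether the level of Gbp2 moves with the share of Rag1-expressing cells in a pool was not tested.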

How the data were processed

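Per the labels' protocols, RNA of sorted progenitors was amplified with a low-input kit (SMARTer) that does not mark strand, and read as single 50-base reads. The submitters' processing notes name HISAT2 2.0.6 and mm9. How reads were assigned to genes, and whether by strand, was not given in the sources used here. What the authors deposited for the 8 pools are raw counts of reads, 1 row for each Ensembl gene. The annotation GENCODE M1, whose assembly NCBIM37 is mm9, named 37205 of 37991 IDs. Reads of overlapping genes or exact copies cannot be told apart.

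The whole table was fitted with edgeR 4.0.16 (TMM, filterByExpr with minimum count 10, robust quasi-likelihood test, Benjamini-Hochberg, threshold 0.05) in R 4.3.3; DESeq2 1.42.0 was an alternative. The biological coefficient of variation was 0.390. Log2 CPM used a prior count of 2, and levels per exonic kb a pseudocount of 0.1. The p-values of the fit weigh the difference between genotypes against the spread between pools, which may be partly technical. The other p-values come from sign flips or permutations of the pools. No pool repeated another beyond sampling noise (over 28 pairs, chi-square was at least 101.3 per degree of freedom). The fit and the correlations were tested on simulated data. Motifs were searched in RefSeq promoters of GRCm38.p6, and exact copies of exonic windows in NCBIM37.

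The members, lists, alternatives and the rule for named genes were chosen with earlier results of these data known. The rule named the members, H2afy, tested family genes, the 2 smallest p per pathway list where none was called, and the 5 genes most like Gbp2 and the members' mean; other genes were named after their values were seen. The result of 1 gene the rule named is not reported here. All 185 list symbols matched, 2 by synonym. Same-numbered pools deviated together across genes at r = 0.19, 0.19, 0.36 and 0.41, all over 0.1. The numbers were therefore treated as possibly pairing the pools, though the labels do not say what a number marks. Pools of different numbers were not set beside these values, so a pairing is not established. The main fit left the numbers out, and the replicate block was an alternative.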

Additional observations from a re-analysis of the deposited data

Results flagged for a closer look

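In 54 groups of 4 pools examined, 2 had a pool far from its others by Dixon's ratio (critical value 0.829), where chance flags about 1 in 20 groups; both were in H2afy_WT 2. F830016B08Rik, an immunity-related GTPase gene near Iigp1, had 14.57 CPM in H2afy_WT 2 and 1.86, 3.39 and 2.59 CPM in the other H2afy_WT pools (ratio 0.879). Gm12185, beside Tgtp1, had 15.89 CPM in H2afy_WT 2 and 6.04, 6.40 and 5.26 CPM in the other H2afy_WT pools (ratio 0.893). The same pool was the highest of H2afy_WT for Iigp1 and Tgtp1, whose values with and without it stand above.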

How the results depend on the processing

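Each of the 10 fold changes was recomputed under 16 alternatives. Gbp2 stayed below 0 in all of them (log2 -1.17 without H2afy_KO 2 to -0.66 without H2afy_KO 3 and 4), and Gbp3, Igtp, Irgm2 and Iigp1 above 0. Irgm1 and Tgtp1 also stayed below 0 in all of them, at -0.01 and -0.04 where they came closest to it. Gbp6, Gbp7 and Gbp9 took the other sign in 2, 3 and 3. Over all genes, 0 were called higher and 0 lower; upper-quartile factors gave 1 higher and 4 lower, DESeq2 48 and 78, no filter 7 and 9, a filter of 5 CPM in 4 pools 2 lower, and no immunoglobulin genes 3 lower. Leaving out single pools gave 0 to 1 lower, the 1 without H2afy_KO 4. Among pathway genes, 6 were called higher by DESeq2 and 2 with no filter; of the named genes these were Irf8 and Ifi27l2a with both, and Bst2 with DESeq2, which also called Mx1. Iigp1 had a log2 fold change of 1.06 and F830016B08Rik 1.01 without H2afy_WT 2; the cause was not tested.

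With the replicate number as a block, 4 genes were called higher and 11 lower, 1 member lower (Gbp2) and 1 pathway gene higher (Irf8). The family was picked because Gbp2 was lower in H2afy_KO, so nothing is read from its call. The block changed no other call among the named genes. In the order of levels and in the covariation, 0 pairs passed in the main analysis and in the alternatives run. With 4 pools a group, members at the level of Tgtp1 (SE 0.41) give wide intervals.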
